A study of Saccharomyces cerevisiae with 21 samples.

Results

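The small subunit of the cytoplasmic ribosome of Saccharomyces cerevisiae, the 40S subunit, is built from ribosomal RNA and a set of proteins most of which are encoded by a pair of near-identical genes. The 54 genes described here are RPS0A to RPS31, chosen by name from the 6692 protein-coding genes of the count table, without the Abf1-type copies RPS22B and RPS28A. All 54 passed the filter on low counts. They form 22 pairs of copies, 8 genes with a single copy, and RPS22A and RPS28B, whose partners were left out with the Abf1-type genes.

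The study addressed the parts that Rap1, a general regulatory factor, and RSC, a chromatin remodeller, play in directing transcription from promoters, and the counts come from polyadenylated RNA of 21 libraries in 7 groups of 3 biological replicates. Each cell pellet was mixed with Schizosaccharomyces pombe cells as a spike-in before RNA extraction. All strains were MATa derivatives of BY4741 that carry Rpb3, an RNA polymerase II subunit, with a 3xFLAG tag, and the labels give all of them the deletions his3, leu2, met15 and ura3 of that background. Wild type (WT) cells had no degron tag and no osTIR and were left untreated. STH1-AID cells carried the auxin-inducible degron IAA7 with a 3V5 tag on Sth1, the ATPase of RSC, RAP1-AID cells carried it on Rap1, and STH1-AID RAP1-AID cells, the double-tagged strain, carried it on both. The 3 degron strains also expressed the plant F-box protein osTIR from the strong constitutive promoter pGPD1, in a construct that carries a LEU2 marker, which WT lacks. Exponential cultures in rich glucose medium received 500 µM indole-3-acetic acid (IAA), the auxin that triggers degradation of the tagged protein, or an equal volume of the solvent DMSO, for 2 h by the study's account. No library came from untagged cells given IAA, so an effect of IAA itself and the loss of a tagged protein cannot be told apart, and the same holds for WT and DMSO-treated cells, which differ in tags, in osTIR, in the LEU2 marker and in solvent.

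Ribosomal protein genes are among the most highly transcribed genes of growing yeast and are regulated as a group by nutrients and stress. At most of their promoters Rap1 binds upstream and recruits Fhl1, Ifh1 and Sfp1, and RSC helps to keep the promoter free of nucleosomes, while a small minority of promoters carries a site for Abf1 instead. The paired copies encode the same or nearly the same protein, so a change in one copy can be offset or amplified by the other.

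1 label did not match the counts. The labels give the met15 deletion for all strains, yet MET17, the gene also called MET15, had a raw count of 1 to 16 in each of 6 libraries from STH1-AID cells and of 2373 to 7502 in the other 15. The mRNA of STH1 in STH1-AID cells and of RAP1 in RAP1-AID cells was not called different between IAA and DMSO (edgeR log2 fold change 0.10 ± 0.32 (SE), adjusted p = 0.809, and 0.12 ± 0.31, adjusted p = 0.847), and since the degron acts on protein, mRNA does not check the depletion. Library totals were 20901972 to 29090954 S. cerevisiae and 1144357 to 3486097 S. pombe counts. A normalised count is the raw count divided by the S. pombe size factor of the library. Replicates of 1 group often differed by a shared factor in all genes: the median member had a normalised count of 14.39, 14.42 and 15.25 on the log2 scale in the 3 DMSO libraries of STH1-AID cells, and 14.84, 14.01 and 13.62 in those of double-tagged cells. Fewer yeast cells per spike-in cell and less mRNA per cell cannot be told apart.

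Sequences upstream of 7 members are shown. RPS9A, RPS25B and RPS28B lay at the ends of the ranges below. RPS9A, RPS27B and RPS21B belong to pairs whose ratio of copies changed by over 1 on the log2 scale in RAP1-AID cells. For these pairs the copy shown is the one with a match to the Rap1-type sequence below. Other such pairs, RPS1 and RPS26 among them, are not shown. RPS16A and RPS18A belong to pairs whose ratio differed from WT without IAA. The 600 bases before each start codon were read from the RefSeq R64 reference and searched on both strands for a Rap1-type sequence that reads CA, any base, CC, any base, T, any base, CA, a form chosen after matches had been viewed. It was present in 26 of 54 members (48.1%) and in 6.95% of all 6002 windows. Of the members, 9 had at least 2 matches. The stretches below lie at chrIV:1359577-1359641 (RPS18A, plus strand), chrXIII:551510-551648 (RPS16A, plus), chrX:157570-157636 (RPS21B, minus), chrVIII:149064-149114 (RPS27B, minus) and chrXVI:404686-404736 (RPS9A, plus), written 5′ to 3′ on the strand of the gene, with each match, or its reverse complement, in capitals.
RPS18A: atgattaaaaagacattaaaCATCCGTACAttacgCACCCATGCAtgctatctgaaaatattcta
RPS16A: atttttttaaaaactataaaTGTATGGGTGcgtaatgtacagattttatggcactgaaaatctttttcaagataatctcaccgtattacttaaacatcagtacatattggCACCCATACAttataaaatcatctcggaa
RPS21B: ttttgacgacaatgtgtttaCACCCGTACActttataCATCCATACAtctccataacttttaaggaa
RPS27B: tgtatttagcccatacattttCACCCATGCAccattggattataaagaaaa
RPS9A: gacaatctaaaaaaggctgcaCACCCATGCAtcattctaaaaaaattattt

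RPS18A, RPS21B and RPS16A each held 2 matches within the stretch shown, and RPS27B and RPS9A held 1. No match to the Rap1-type sequence was found in the windows of RPS25B, RPS26B, RPS9B, RPS27A, RPS21A or RPS28B, which says only that these letters were not in the windows searched. Upstream stretches of RPS25B (chrXII:796000-796299, minus strand) and RPS28B (chrXII:672831-673030, plus strand), the members with the lowest and the highest log2 fold change in RAP1-AID cells, are shown with runs of at least 7 T or 7 A in capitals. Such runs (TTTTTTT on either strand) occurred in 38 of 54 members (70.4%) and in 68.2% of all windows.
RPS25B: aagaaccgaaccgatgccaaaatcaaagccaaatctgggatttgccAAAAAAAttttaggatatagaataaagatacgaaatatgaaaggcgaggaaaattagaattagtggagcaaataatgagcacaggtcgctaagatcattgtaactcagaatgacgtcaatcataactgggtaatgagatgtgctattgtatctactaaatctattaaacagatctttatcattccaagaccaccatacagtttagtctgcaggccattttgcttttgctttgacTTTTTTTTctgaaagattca
RPS28B: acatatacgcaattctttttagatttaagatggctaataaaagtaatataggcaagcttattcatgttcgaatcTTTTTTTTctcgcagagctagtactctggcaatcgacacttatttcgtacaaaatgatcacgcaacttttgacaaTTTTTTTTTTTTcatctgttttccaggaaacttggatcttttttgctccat

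Other short sequences were also counted. CGCG, the core of the sequence known for RSC, was in 36 of 54 windows of members (66.7%) and in 47.2% of all windows, and GACGCA, of the type known for Fhl1, was in 7 of 54 and in 12.9% of all. Members with and without an intron or a match lay close to each other in the values below. In RAP1-AID cells the median log2 fold change was -2.06 over the 35 members with an intron and -2.14 over the 19 without one, and -1.96 over the 26 members with a match to the Rap1-type sequence and -2.19 over the 28 without, described here with no test.

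In WT cells the members ranged from 6015 ± 1717 normalised counts per kb of coding sequence (SD, n = 3) for RPS14B, the minor copy of a platform protein, to 189200 ± 46070 for RPS20, a head protein that touches the mRNA path. RPS31, which encodes the protein as a fusion to ubiquitin, was next to RPS20 at 188400 ± 48200, and these neighbours differed by less than the spread of their replicates. RPS9A had the second lowest level, 9691 ± 864. Fragments with a read across an exon junction were not counted, while those within introns were. Levels per kb of coding sequence of the 35 intron-containing members are therefore off by an unknown factor, which limits comparisons of levels between genes.

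The share of all S. cerevisiae counts taken by the 54 genes does not depend on the spike-in. It was 5.865, 6.091 and 6.185% in the WT libraries and 6.234, 6.017 and 6.101% in DMSO-treated STH1-AID cells. IAA-treated STH1-AID cells had 4.711, 4.526 and 4.621%. In RAP1-AID cells it was 5.389, 5.575 and 5.548% with DMSO and 2.014, 2.137 and 2.191% with IAA, and in double-tagged cells 5.391, 5.383 and 5.206% with DMSO and 2.139, 2.331 and 2.615% with IAA. In each strain all 3 IAA libraries lay below all 3 DMSO libraries, and the IAA libraries of both strains with tagged Rap1 lay below those of STH1-AID cells. DMSO-treated libraries of both strains with tagged Rap1 also lay below all WT libraries. For 3 libraries against 3 an exact permutation test can give no two-sided p below 0.1, so no test is given.

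**Figure D1:**
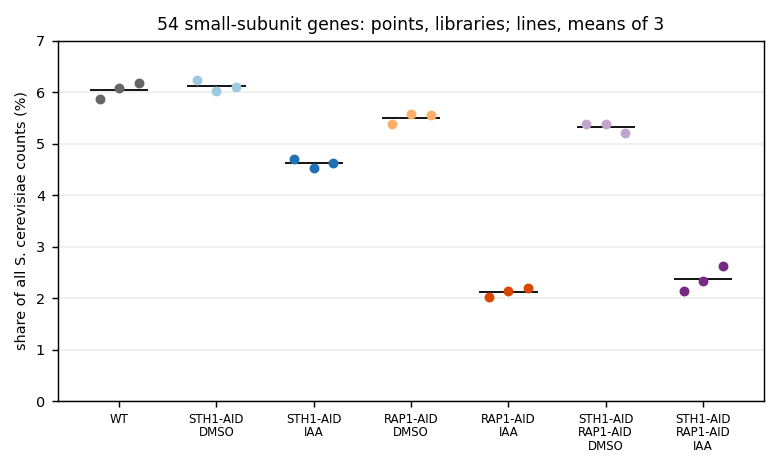
Percent of all S. cerevisiae counts of a library that fell on the 54 small-subunit genes (vertical axis, from 0) in the 7 groups (horizontal axis), with a point for each of 3 libraries and a line at their mean. The share was 6.05% in WT, 4.62% in IAA-treated STH1-AID cells and 2.11% in IAA-treated RAP1-AID cells.

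After addition of IAA to RAP1-AID cells 52 of the 54 genes were called lower and 0 higher, where 4.09% of the 6254 genes tested were called lower and 0.400% higher (called by edgeR's quasi-likelihood test where the Benjamini-Hochberg adjusted p over all genes was under 0.05 and the log2 fold change was beyond 1 in either direction). No member was higher at an unadjusted p under 0.05, and DESeq2 also called 52 lower and 0 higher. The median log2 fold change was -2.09 over the members and -0.26 over all genes tested. Within this range the members differed widely, from -3.74 to -0.45. All 54 had their 3 IAA libraries below their 3 DMSO libraries, which held for 55.0% of all genes tested.

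RPS25B (YLR333C, chrXII:795573-795899, minus strand, no intron), which encodes 1 of the copies of a head protein known to take part in initiation from some viral RNAs, had 7102, 7363 and 9394 normalised counts with DMSO and 595, 607 and 580 with IAA. Every IAA library was far below every DMSO library and the 3 were close to each other. The log2 fold change was -3.74 ± 0.35 (SE, edgeR's quasi-likelihood test, Benjamini-Hochberg adjusted p = 3.11e-23), the lowest of the members. RPS26B (YER131W), a copy for a protein at the exit of the mRNA channel, had 19335, 19496 and 24946 normalised counts with DMSO and 2280, 2218 and 2429 with IAA. Its groups did not overlap, and the log2 fold change was -3.20 ± 0.35 (edgeR adjusted p = 2.32e-17). RPS9B (YBR189W, chrII:604508-605508, plus strand), the major copy for a protein that bears on the accuracy of decoding, had 39155, 40731 and 52432 with DMSO and 5220, 5563 and 6021 with IAA, a log2 fold change of -2.98 ± 0.34 (edgeR adjusted p = 1.26e-15). The next largest falls were those of RPS29A, for a small zinc-binding head protein (-2.83 ± 0.33), and RPS19B, for a head protein (-2.75 ± 0.34).

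At the other end, RPS28B (YLR264W, chrXII:673131-673334, plus strand), which encodes a small protein near the mRNA exit, had 7001, 6914 and 9070 normalised counts with DMSO and 5139, 5589 and 6117 with IAA. The IAA libraries lay below the DMSO libraries by a small margin, and the log2 fold change of -0.45 ± 0.32 was not called (edgeR adjusted p = 0.784). RPS9A (YPL081W, chrXVI:404950-406044, plus strand) had 7596, 7546 and 8995 with DMSO and 4365, 4544 and 4652 with IAA, a log2 fold change of -0.83 ± 0.32 (edgeR adjusted p = 0.155) that was not called either. In an edgeR fit of the RAP1-AID libraries alone, with the replicate number as a block, both missed the call on fold only. RPS9A was at -0.83 (adjusted p = 3.24e-06) and RPS28B at -0.44 (adjusted p = 0.0326) in that fit. With TMM scaling RPS9A was at -0.51 (edgeR adjusted p = 0.0108) and RPS28B at -0.12 (adjusted p = 0.388). Among the smallest falls that were called were those of RPS22A (-1.16 ± 0.32, adjusted p = 0.00824), for a protein of the body, and RPS27B (-1.16 ± 0.32, adjusted p = 0.00813). RPS10A, which encodes a head protein, was close to the middle, with a log2 fold change of -1.93 ± 0.33 (adjusted p = 3.22e-07). When libraries were scaled by TMM over the S. cerevisiae genes instead of by the spike-in, the median of all genes moved from -0.26 to 0.07, 46 members were called lower (3.07% of all genes tested), and RPS15, RPS22A, RPS27B and RPS4A were among those no longer called.

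**Figure D2:**
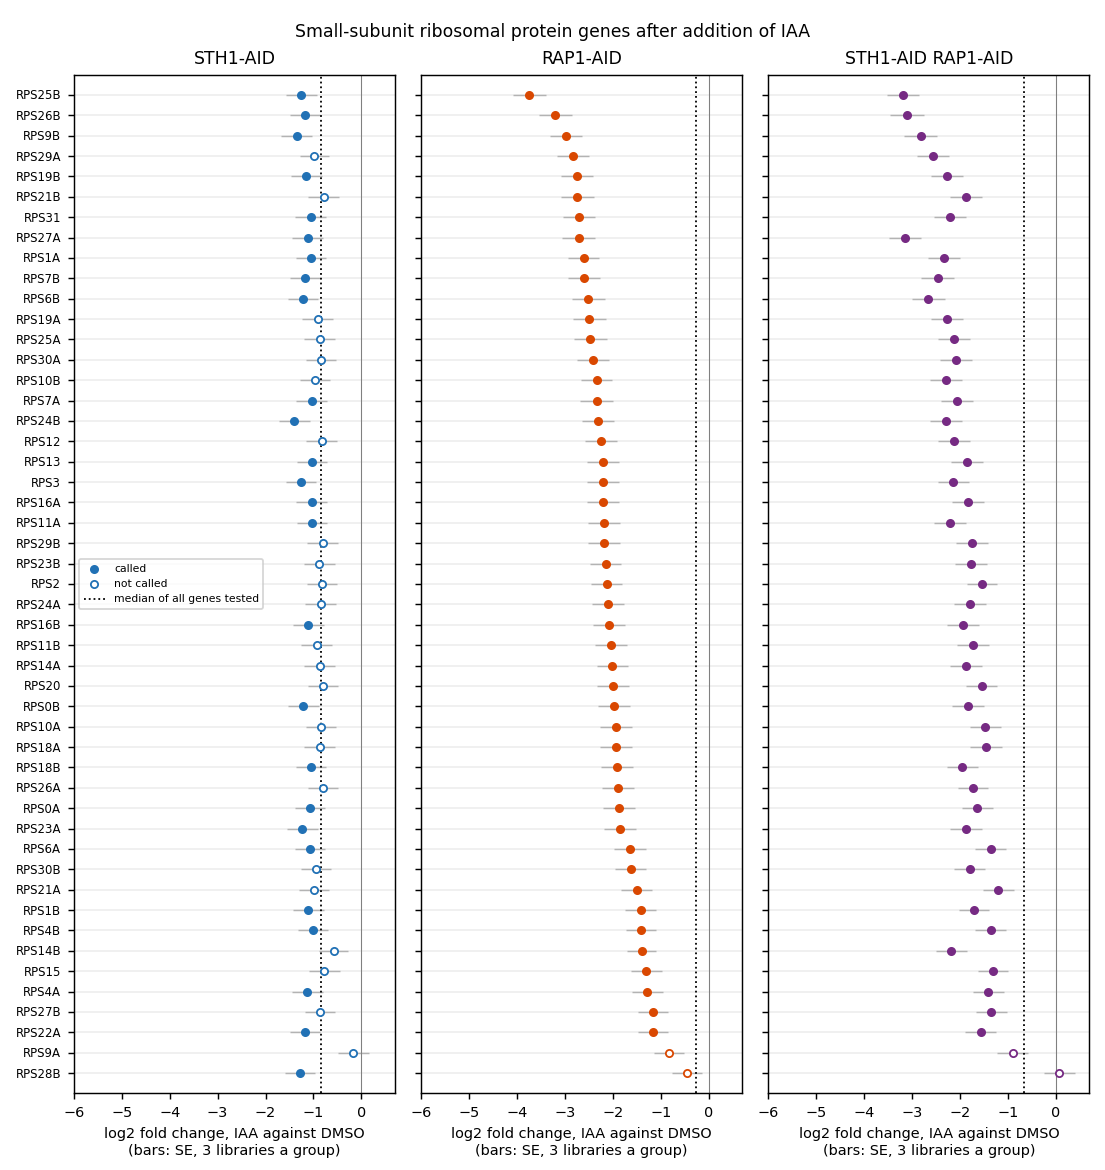
Log2 fold change of IAA against DMSO (horizontal axis, spike-in scaling, bars SE, 3 libraries a group) for 49 of the 54 genes (vertical axis, ordered by RAP1-AID) in the 3 degron strains, filled where called, with the median of all genes tested as a dotted line. The values ran from -1.40 to -0.17 in STH1-AID, some of them above 0 with TMM scaling, from -3.74 to -0.45 in RAP1-AID and from -3.19 to 0.07 in STH1-AID RAP1-AID cells.

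In STH1-AID cells 29 members were called lower with IAA and 0 higher, where 42.7% of all genes tested were called lower and 4.69% higher. No member was higher at an unadjusted p under 0.05, and DESeq2 also called 29 lower and 0 higher. The median was -1.03 over the members and -0.84 over all genes tested, a difference of -0.19 on the log2 scale. The members lay close together, from -1.40 for RPS24B to -0.17 for RPS9A, and 53 of 54 had every IAA library below every DMSO library, against 56.7% of all genes tested. This too rested on the spike-in: with TMM scaling 28 lay below, 7 lay above and 19 overlapped. The share of all genes with TMM scaling is not given, so these counts do not set the members apart. RPS24B had 13261, 13364 and 24545 normalised counts with DMSO and 5263, 7249 and 6923 with IAA. Its IAA libraries were all lower, and the log2 fold change was -1.40 ± 0.32 (edgeR adjusted p = 5.43e-05), with the reservation that RPS24A and RPS24B share part of their sequence. RPS9B followed at -1.35 ± 0.32 (adjusted p = 8.54e-05), RPS28B at -1.28 ± 0.32 (adjusted p = 0.00019), RPS3 at -1.26 ± 0.32 (adjusted p = 0.000233) and RPS25B at -1.25 ± 0.32 (adjusted p = 0.000248).

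The count of 29 rested on the scaling and on single libraries. With TMM scaling, which moved the median of all genes from -0.84 to 0.05, 0 members were called in either direction by edgeR, while 15.4% of all genes tested were called lower. Of the members 26 had an unadjusted p under 0.05 and the median was -0.13. Without replicate 3 of the DMSO libraries, in which normalised counts of most members were the highest of the group, 2 members were called, and without replicate 1 of the IAA libraries 16 were called. RPS9A was the exception among the members. It had 5326, 4598 and 8608 normalised counts with DMSO and 4639, 6093 and 5710 with IAA, so its groups overlapped, and its log2 fold change of -0.17 ± 0.32 (edgeR adjusted p = 0.654) became 0.73 with TMM scaling.

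With IAA in double-tagged cells 52 members were called lower and 0 higher, where 32.6% of all genes tested were called lower and 3.49% higher, and DESeq2 gave the same counts. No member was higher at an unadjusted p under 0.05. The median was -1.86 over the members and -0.67 over all genes tested. RPS25B had 7019, 4760 and 3138 normalised counts with DMSO and 394, 640 and 602 with IAA. Its groups were wide apart, with a log2 fold change of -3.19 ± 0.34 (edgeR adjusted p = 3.07e-17). RPS27A, a copy for a zinc-finger protein, had 11856, 7392 and 4918 with DMSO and 761, 1032 and 936 with IAA, and a log2 fold change of -3.15 ± 0.34 (adjusted p = 9.14e-17). RPS26B (-3.11 ± 0.35), RPS9B (-2.82 ± 0.34) and RPS6B, a copy for the phosphorylated protein Rps6 (-2.66 ± 0.34), came next.

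RPS28B had 7143, 4198 and 2953 normalised counts with DMSO and 4855, 5886 and 4225 with IAA in these cells. The groups overlapped, and the log2 fold change was 0.07 ± 0.32 (edgeR adjusted p = 0.877). RPS28B was the 1 member above the median of all genes tested, by 0.74 on the log2 scale, and with TMM scaling it was 0.79. RPS9A had 8457, 5660 and 3666 with DMSO and 2970, 3737 and 2846 with IAA, again with overlap, and was not called (-0.90 ± 0.32, adjusted p = 0.0117). With TMM scaling 37 members were called lower, where 6.57% of all genes tested were, and 52 had every IAA library below every DMSO library with the spike-in, against 41.8% of all genes tested. The smallest falls called were those of RPS21A (-1.20 ± 0.32), RPS15 (-1.31 ± 0.32) and RPS27B (-1.35 ± 0.32). Same-numbered DMSO and IAA libraries deviated together in this strain, and with the replicate number as a block 38 of the 52 calls remained, where 8.11% of all genes tested were called lower. The 14 others, among them RPS2, RPS4A, RPS4B, RPS6A, RPS10A, RPS15, RPS18A, RPS20, RPS21A, RPS22A and RPS27B, had adjusted p of 0.0575 to 0.145 in that fit. In STH1-AID cells the block left 25 of the 29 calls and ended those of RPS4B, RPS7A, RPS11A and RPS13, which no longer passed on fold (adjusted p of 0.0223 to 0.0296), where 41.3% of all genes tested were called lower.

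**Figure D3:**
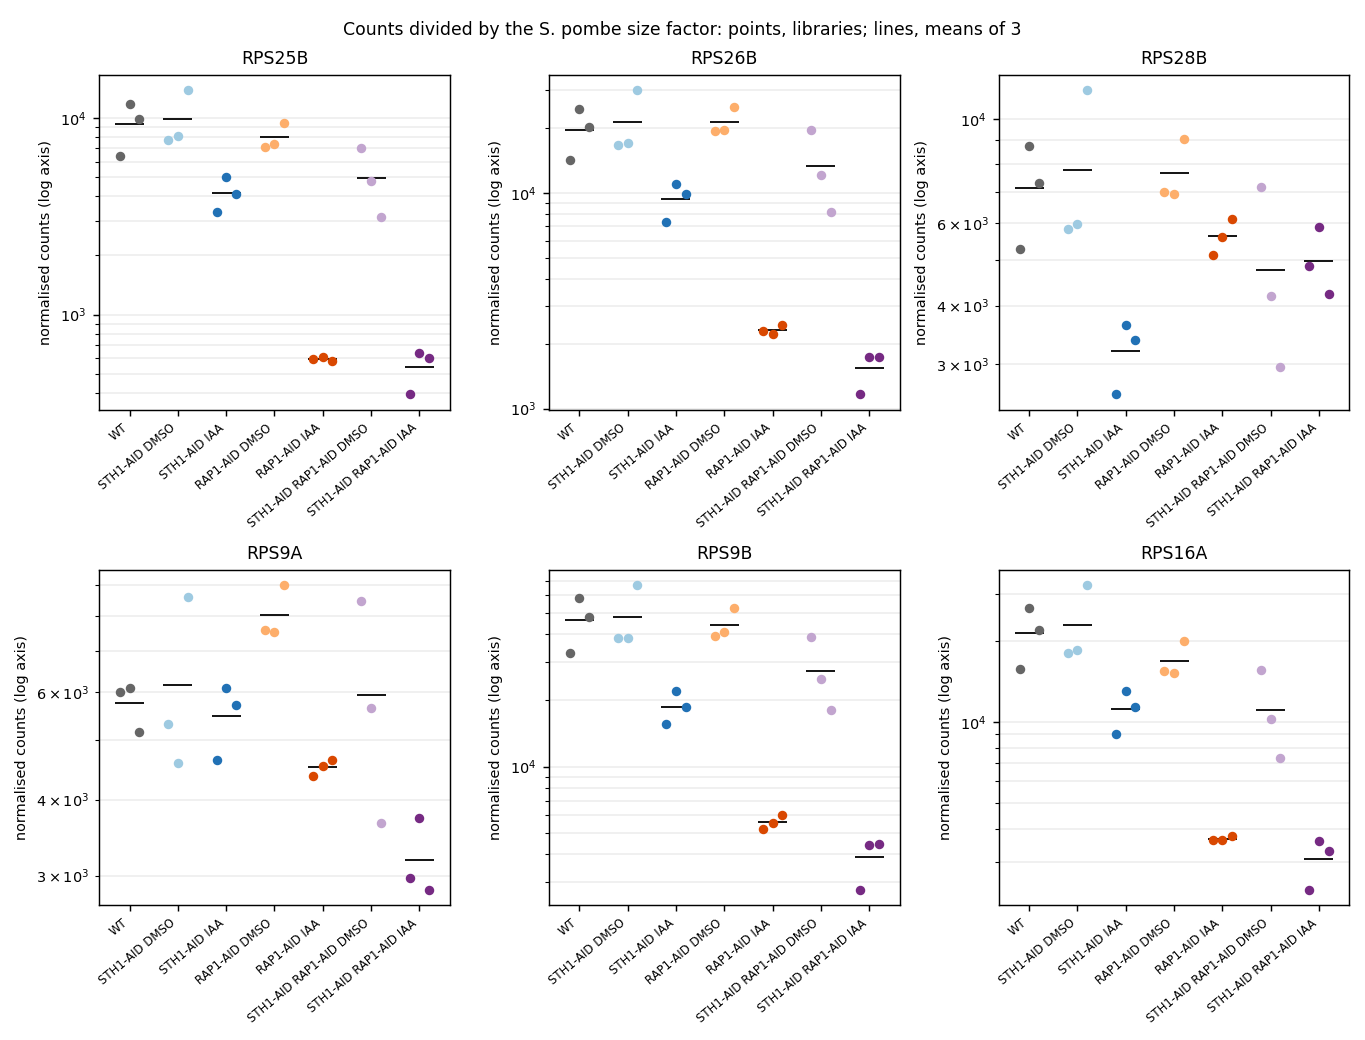
Normalised counts (vertical axis, log scale) of 6 members in the 7 groups (horizontal axis), with a point for each of 3 libraries and a line at their mean. In RAP1-AID cells RPS25B lay between 580 and 607 with IAA and between 7102 and 9394 with DMSO, while RPS28B lay between 5139 and 6117 with IAA and between 6914 and 9070 with DMSO.

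Effects in different strains were compared by interaction terms of the same fit. For 30 members IAA had a lower log2 fold change in RAP1-AID than in STH1-AID cells, where 6.27% of all genes tested were called so, and for 0 members it was higher (32.3% of all genes), also by DESeq2 and at an unadjusted p under 0.05. The largest differences were those of RPS25B (-2.49 ± 0.45, edgeR adjusted p = 9.87e-07), RPS26B (-2.02 ± 0.46, adjusted p = 8.79e-05) and RPS21B (-1.94 ± 0.46). RPS21B encodes a protein that binds to Rps0, and its log2 fold change was -0.79 ± 0.32 in STH1-AID cells (0.10 with TMM scaling) and -2.74 ± 0.34 in RAP1-AID cells. For RPS22A the difference was 0.02 ± 0.45 (adjusted p = 0.972). The count was 19 when replicate 2 of either treatment of STH1-AID cells, or DMSO replicate 3 of RAP1-AID cells, was left out, and 46 with TMM scaling (15.0% of all genes tested).

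Between the double-tagged strain and RAP1-AID cells no member was called different in its effect of IAA by edgeR or DESeq2, in either direction, and 0 had an unadjusted p under 0.05, where 9.79% of all genes tested were called lower and 1.50% higher. The member values ran from -0.79 for RPS14B to 0.87 for RPS21B, with an SE of 0.43 and 0.45. With TMM scaling RPS21B was called higher (1.25, adjusted p = 3.21e-07), as were 5.90% of all genes tested. Leaving out replicate 3 of DMSO-treated double-tagged cells gave 1 member called lower.

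Relative to STH1-AID cells the double-tagged strain had 6 members with a lower effect of IAA, RPS27A (-2.03 ± 0.45, edgeR adjusted p = 0.0014), RPS25B (-1.94 ± 0.45, adjusted p = 0.00271), RPS26B (-1.93 ± 0.46, adjusted p = 0.00339), RPS14B (-1.60 ± 0.43, adjusted p = 0.0163), RPS29A (-1.58 ± 0.44, adjusted p = 0.0234) and RPS9B (-1.47 ± 0.45, adjusted p = 0.0456), where 1.28% of all genes tested were called lower and 1.28% higher, and DESeq2 called 9 members. With the replicate number as a block none of the 6 was called (adjusted p of 0.0789 to 0.409; 0.304% of all genes tested), while with TMM scaling 32 members were called lower (5.85%). Leaving out 1 library gave counts from 3 (without replicate 2 of the DMSO libraries or replicates 2 or 3 of the IAA libraries of STH1-AID cells, or replicate 1 of the IAA libraries of double-tagged cells) to 15 (without DMSO replicate 3 of the double-tagged strain) and 18 (without DMSO replicate 3 of STH1-AID). RPS28B differed the other way (1.35 ± 0.45, adjusted p = 0.0744) and was the 1 member higher at an unadjusted p under 0.05, while 0 were called higher by edgeR or DESeq2. It was called with TMM scaling (1.15, adjusted p = 3.32e-07), where 1 member and 2.96% of all genes tested were called higher.

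The ratio of the counts of the A and the B copy within a library is free of scaling. In RAP1-AID cells the IAA and DMSO libraries did not overlap in this ratio for 21 of the 22 pairs, where 90.2% of all 61 pairs of genes named A and B did not overlap, and the median absolute change was 0.51 on the log2 scale, against 0.52 over all 61 pairs. The 61 pairs include the 22 themselves and pairs of large-subunit ribosomal protein genes, so they are not a background apart from the members. With IAA the ratio was higher in 14 of the 21 separated pairs and lower in 7. For 11 of the 22 pairs the change was over 0.5, and for 32 of all 61. In STH1-AID cells all 22 pairs were separated (86.9% of all 61), but the median absolute change was 0.18 (0.20 over all 61). There 2 pairs changed by over 0.5, and 10 of all 61. In double-tagged cells 18 were separated (78.7% of all 61), with a median of 0.48 (0.49 over all 61) and 10 pairs over 0.5 (30 of all 61). In these values the members did not stand out from all 61 pairs.

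RPS9 was the pair whose copies differed most in RAP1-AID cells. The log2 ratio of RPS9A to RPS9B was -2.37, -2.43 and -2.54 with DMSO and -0.26, -0.29 and -0.37 with IAA. It was -2.85, -3.06 and -2.96 against -1.74, -1.86 and -1.70 in STH1-AID cells, and -2.20, -2.14 and -2.30 against 0.11, -0.23 and -0.65 in double-tagged cells. In all 3 strains the ratio was higher with IAA with no overlap, by 1.19 (STH1-AID), 2.14 (RAP1-AID) and 1.96 (double-tagged), and with IAA the counts of RPS9A were close to those of RPS9B in both strains with tagged Rap1.

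RPS27 changed in the opposite sense. The log2 ratio of RPS27A to RPS27B was -0.27, -0.32 and -0.24 with DMSO and -1.75, -1.84 and -1.86 with IAA in RAP1-AID cells, a change of -1.54, and the change was -1.78 in the double-tagged strain and -0.25 in STH1-AID cells. RPS26A to RPS26B was higher with IAA by 1.31, 1.36 and 0.38 in RAP1-AID, double-tagged and STH1-AID cells, and RPS25A to RPS25B by 1.27, 1.06 and 0.38. RPS21A to RPS21B was higher by 1.24 in RAP1-AID and 0.68 in double-tagged cells, and went the other way in STH1-AID cells, by -0.20. RPS1, for a platform protein, was also unlike between strains, with -1.19, -0.63 and 0.06 in RAP1-AID, double-tagged and STH1-AID cells.

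RPS14 also has a minor copy, RPS14B (YJL191W, chrX:73787-74611, plus strand), whose protein is known to repress the splicing of its own transcript. The log2 ratio of RPS14A to RPS14B was 4.11, 4.10 and 4.16 with DMSO and 3.48, 3.57 and 3.50 with IAA in RAP1-AID cells. In double-tagged cells it was 4.36, 3.75 and 4.47 with DMSO and 4.52, 4.28 and 4.71 with IAA. These groups overlap, while each IAA library lay above the DMSO library of its own number, in a strain whose numbers were taken to pair the samples. The same held for RPS0 and RPS16, which are also counted as overlapping. RPS14B fell by 1.40 on the log2 scale in RAP1-AID and by 2.18 in double-tagged cells, while its value in STH1-AID cells was -0.58 ± 0.31 (edgeR adjusted p = 0.0851), or 0.30 with TMM scaling.

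The pairs whose copies differed least in RAP1-AID cells were RPS18 (-0.03, the 1 pair that overlapped), RPS0 (0.11) and RPS16 (-0.12). RPS0A and RPS0B had log2 fold changes of -1.87 ± 0.33 and -1.98 ± 0.33 in RAP1-AID cells and of -1.07 ± 0.32 and -1.21 ± 0.32 in STH1-AID cells. Copies could not be told apart with equal confidence in all pairs: of the members, 46 were unique in every stretch of 101 bases, the read length, and the copies of RPS4, RPS6 and RPS24 were among those that were not. The coding sequences of a pair were 84.3% (RPS27) to 99.2% (RPS6) identical. The change of the RPS6 ratio, 0.87 in RAP1-AID and 1.32 in double-tagged cells, therefore rests on the unique parts of these genes.

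**Figure D4:**
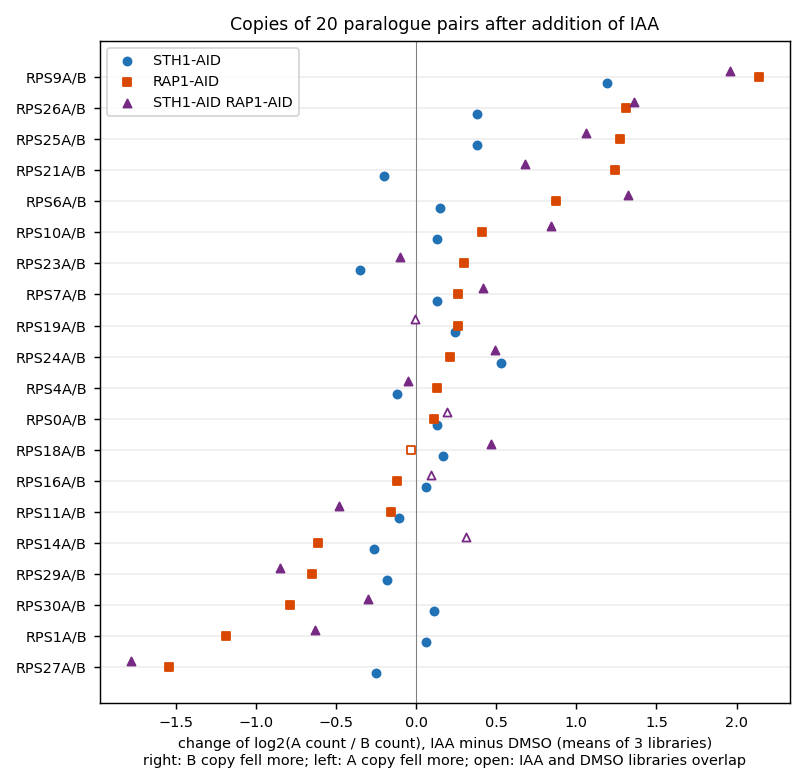
Change of the log2 ratio of the A to the B copy, IAA minus DMSO (horizontal axis), for 20 of the 22 pairs (vertical axis, ordered by RAP1-AID) in the 3 strains, with open symbols where the 3 IAA and 3 DMSO libraries overlap. RPS9 lay highest with 2.14 and RPS27 lowest with -1.54 in RAP1-AID cells.

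DMSO-treated degron cells were also compared with WT, from which they differ as described above, STH1-AID cells also in the counts of MET17. In STH1-AID cells 0 members were called in either direction by edgeR or DESeq2 and 0 had an unadjusted p under 0.05, where 0.352% of all genes tested were called lower and 1.04% higher. In RAP1-AID cells the same counts were 0, where 0.895% of all genes tested were called lower and 11.9% higher, and the medians were 0.18 over the members and 0.52 over all genes tested. In double-tagged cells 1 member was called lower and 0 higher, where 1.71% of all genes tested were called lower and 5.21% higher. DESeq2 also called 1 member, and 10 members were lower at an unadjusted p under 0.05. The count was 7 without replicate 1 of WT and 10 without replicate 1 of the DMSO libraries of double-tagged cells. With TMM scaling 1 member was called lower in each strain with tagged Rap1, where 2.48% and 1.81% of all genes tested were called lower. Direction in RAP1-AID cells rested on the scaling: RPS26A was at 0.26 with the spike-in and -0.27 with TMM, and RPS20 at 0.12 and -0.42. With TMM scaling 51 (RAP1-AID) and 52 (double-tagged) members had every DMSO library below every WT library, and 0 above. With the spike-in 0 and 2 lay below, and 1 and 0 above. The share of all genes tested is not given for these counts, so they are not read as a result about the members. These comparisons share the WT libraries.

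RPS16A (YMR143W), for a protein whose tail reaches the peptidyl site, had 15796, 26555 and 22057 normalised counts in WT, 15453, 15205 and 20081 in DMSO-treated RAP1-AID cells and 15592, 10252 and 7331 in DMSO-treated double-tagged cells. The libraries of double-tagged cells were all lower than those of WT. The adjusted p was under the threshold but the change was too small for a call (-0.96 ± 0.32, edgeR adjusted p = 0.04), and in RAP1-AID cells the groups overlapped (-0.34 ± 0.32, adjusted p = 0.381).

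The ratio of the copies showed such differences apart from the scaling. RPS18A to RPS18B was 0.21, 0.21 and 0.17 in WT and -0.39, -0.36 and -0.39 in DMSO-treated RAP1-AID cells, a change of -0.58. In DMSO-treated double-tagged cells it was -0.56, -0.39 and -0.46, a change of -0.67, and in DMSO-treated STH1-AID cells 0.20, 0.16 and 0.12. Both strains with tagged Rap1 stood apart from WT with no overlap. RPS16A to RPS16B was 0.04, 0.02 and -0.02 in WT, -0.50, -0.53 and -0.51 in DMSO-treated RAP1-AID cells and -0.57, -0.49 and -0.52 in DMSO-treated double-tagged cells. These were changes of -0.53 and -0.54, and RPS1A to RPS1B changed by -0.42 and -0.58. In RAP1-AID cells the change with IAA was -0.03 for RPS18 and -0.12 for RPS16, as given above. In double-tagged cells RPS18 was -0.02, 0.03 and -0.01 with IAA, higher than with DMSO by 0.47 with no overlap, and RPS16 was -0.50, -0.44 and -0.38, higher by 0.09 with overlap.

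Over all 22 pairs the DMSO and WT libraries did not overlap for 7 (STH1-AID), 18 (RAP1-AID) and 13 (double-tagged), where 47.5%, 77.0% and 65.6% of all 61 pairs did not overlap. In this the members did not stand out above all 61 pairs, which include them. The median absolute change was 0.04, 0.15 and 0.15 on the log2 scale, and 0, 6 and 9 pairs changed by over 0.25. These medians and counts are not given for all 61 pairs, so they do not set the members apart. For RPS9 the WT libraries themselves were unlike, with log2 ratios of -2.45, -3.26 and -3.21, and replicate 1 of WT overlapped with DMSO-treated RAP1-AID cells.

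**Figure D5:**
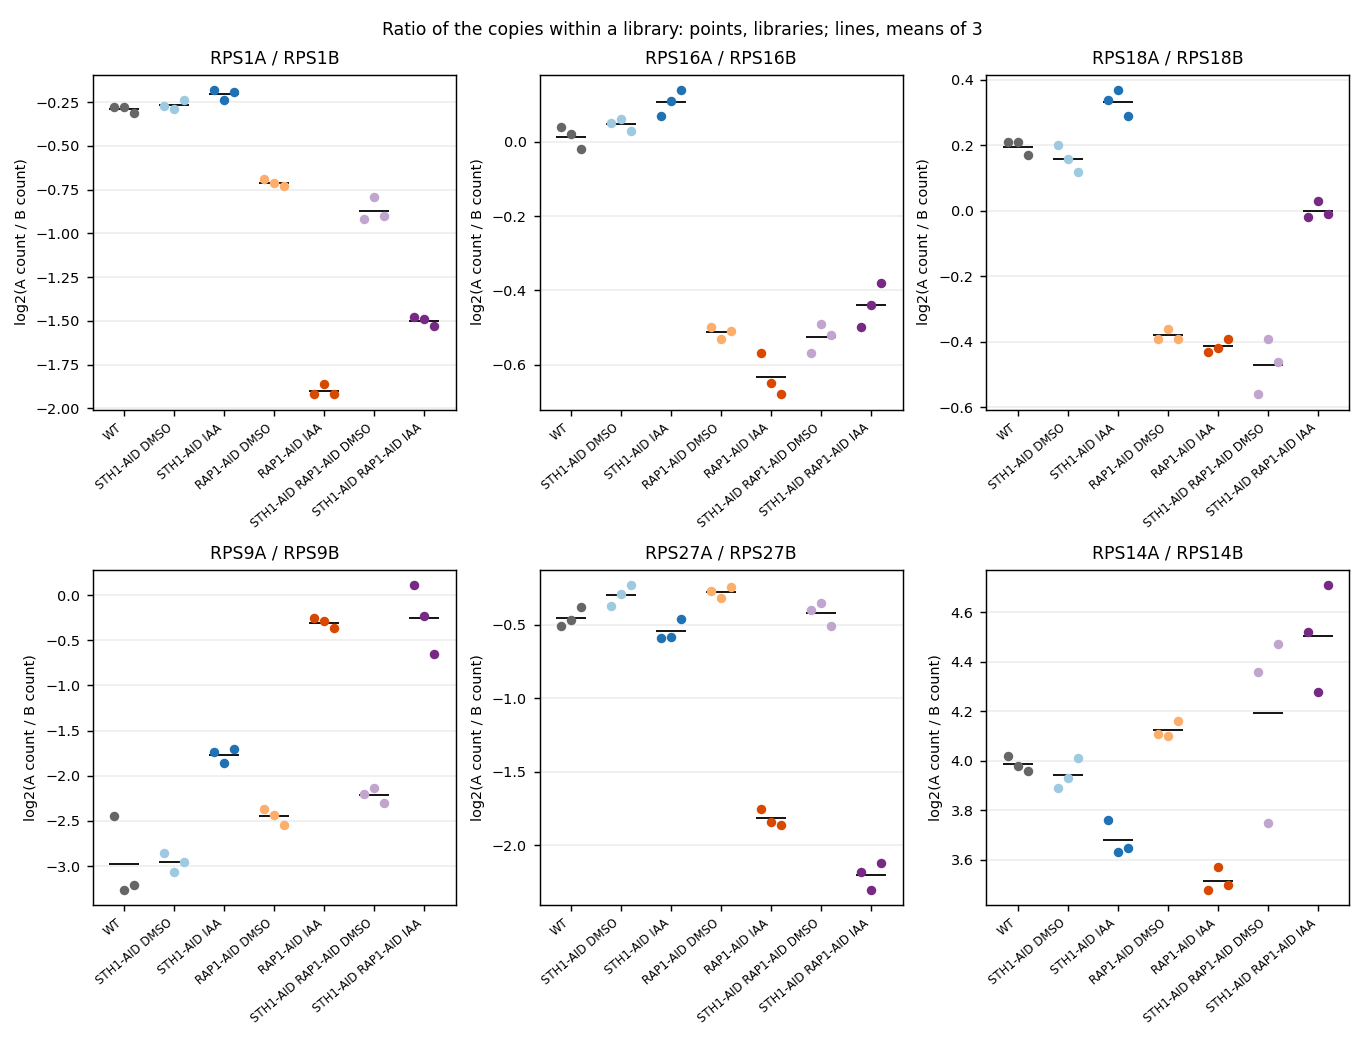
Log2 ratio of the counts of the A and the B copy (vertical axis) of 6 pairs in the 7 groups (horizontal axis), with a point for each of 3 libraries and a line at their mean. The ratio of RPS18A to RPS18B was 0.17 to 0.21 in WT and -0.39 to -0.36 in DMSO-treated RAP1-AID cells.

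Other genes that serve the small subunit were read beside the members. Of 15 assembly factors of the 40S subunit, 10 (STH1-AID), 2 (RAP1-AID) and 6 (double-tagged) were called lower with IAA, where 42.7%, 4.09% and 32.6% of all genes tested were, and their medians were -1.28, -0.37 and -0.91. In STH1-AID cells TSR2, a chaperone of Rps26, and TSR4, a chaperone of Rps2, were lowest, at -3.21 ± 0.34 (edgeR adjusted p = 2.1e-19) and -2.65 ± 0.33 (adjusted p = 2.62e-14). In RAP1-AID cells TSR1, for a late assembly factor, fell by 1.76 on the log2 scale and NOB1, for the endonuclease that makes the mature end of 18S rRNA, fell by 1.67. Among 12 factors that bind the 40S subunit, 2, 1 and 0 were called lower in STH1-AID, RAP1-AID and double-tagged cells, to be read against the same shares of all genes, as are the counts that follow. ASC1, for a protein on the head of the subunit, was at -1.29 ± 0.32 in STH1-AID and -1.33 ± 0.32 in RAP1-AID cells. Of 8 regulators of ribosomal protein genes, 2 were called lower in STH1-AID cells, HMO1 (-1.56 ± 0.33) and FHL1 (-1.40 ± 0.31), 0 in RAP1-AID cells, where 1 was lower at an unadjusted p under 0.05, and 1 in double-tagged cells, CRF1 (-1.26 ± 0.39). With TMM scaling 3, 2 and 2 of the assembly factors were called lower, and ASC1, HMO1, FHL1 and CRF1 were not called.

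The Abf1-type copies left out of the members, RPS22B and RPS28A, were not called with IAA in any strain. RPS22B had a log2 fold change of -0.54 ± 0.31 (STH1-AID, 0.36 with TMM scaling), -0.65 ± 0.32 (RAP1-AID) and 0.18 ± 0.31 (double-tagged), and its partner RPS22A had -1.18, -1.16 and -1.57. The 76 large-subunit ribosomal protein genes were called lower in 41, 73 and 71 cases in STH1-AID, RAP1-AID and double-tagged cells (42.7%, 4.09% and 32.6% of all genes tested), with medians of -1.01, -1.84 and -1.77, beside -1.03, -2.09 and -1.86 for the small-subunit members. The difference between the subunits was not tested.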

How the data were processed

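Strand-specific paired-end reads of polyadenylated RNA from 21 libraries were trimmed, mapped and counted by the authors. By the submitters' processing notes and the study's methods, they used cutadapt 1.9.1, BWA 0.5.9-r16 against each genome (S. cerevisiae R64-1-1, Ensembl release 90), BamTools 2.4.0 and featureCounts of Subread 1.5.1. The deposited values are raw counts of fragments per protein-coding gene, with each gene as a single interval that includes its introns. Only unsplit, uniquely mapped fragments were counted, so fragments with a read over an exon junction and fragments shared by copies of a gene are missing. A fragment on overlapping genes was counted for each. No column of the tables was left unused (0).

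Counts of 6692 S. cerevisiae genes were scaled by size factors computed from the S. pombe counts by the median-of-ratios method. Genes were filtered by filterByExpr (6254 kept) and tested by edgeR 4.0.16 (R 4.3.3, quasi-likelihood, 7 group coefficients in 1 fit, Benjamini-Hochberg adjustment over all genes of a comparison). The SE was derived from the F statistic. The log2 ratio of copies used raw counts with a pseudocount of 0.5. Library totals are given with the results. The precision of a comparison rests on depth and on the spread between replicates, estimated for each gene over all 7 groups. An SE or p-value of this fit is therefore not set by the spread of the compared groups alone. The fits with the replicate block used the libraries of the compared groups alone. By their labels the replicates are biological, with nothing on separate starting cultures, so p-values measure the spread between these samples. No pair of libraries was alike within sampling noise. On data simulated for the RAP1-AID comparison (6254 genes, 200 changed) all 50 genes with a log2 fold change of -2 and 46 of 50 with -1.5 were recovered, and 2 of 6054 unchanged genes were called. The simulation drew each gene separately with known size factors. It therefore does not cover a factor shared by all genes of a library, or an error of the spike-in scaling. Sequences and annotation are those of the RefSeq reference (R64), in which 6005 IDs were matched, 5998 with the same start and end. Python 3.11.15, pandas 2.3.3, numpy 2.4.6, biopython 1.88 and matplotlib 3.10.9 were used.

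Same-numbered IAA and DMSO libraries deviated from their group means together in STH1-AID (r across genes of 0.129, 0.231 and 0.194) and in the double-tagged strain (0.482, 0.694 and 0.648), and these numbers were taken to pair the samples. In RAP1-AID cells the values were 0.139, 0.0902 and 0.131, and the numbers were not taken so. This choice followed no fixed threshold, and the values of STH1-AID and RAP1-AID cells overlap. The main calls in all strains come from the fit without the block. Differently numbered libraries of RAP1-AID cells gave r of -0.119 to -0.0185, so the numbers may pair these libraries weakly. The pairing comes from the replicate numbers in the labels.

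Genes named are the 5 members with the lowest and the 5 with the highest log2 fold change in each IAA comparison, the 3 pairs whose copies differed most and the 3 whose copies differed least in RAP1-AID cells, the most and least abundant member per kb in WT, RPS10A, members called against WT, and for other lists the 2 genes with the largest change. Other members and pairs named, such as RPS14, RPS21 and RPS1, were chosen after their values were seen. A few members that this rule or the counts would name are not reported here one by one, though all counts and medians include them. The members, lists and tests were chosen with earlier results of these data known. Alternatives were DESeq2 1.42.0, TMM and S. cerevisiae size factors, no filter, the adjusted p alone, the replicate block, a pseudocount of 10 and leaving out each library. The replicate block with TMM was added after seeing the data.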

Additional observations from a re-analysis of the deposited data

Results flagged for a closer look

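The effect of IAA differed between strains for some members by the interaction term of the edgeR fit. It was lower in RAP1-AID than in STH1-AID cells for 30 members. Among the named ones the difference of log2 fold changes was -2.49 for RPS25B, -2.02 for RPS26B, -1.94 for RPS21B, -1.85 for RPS29A, -1.62 for RPS9B, -1.60 for RPS19B, -1.59 for RPS27A, -1.29 for RPS6B, -1.20 for RPS20, -1.16 for RPS16A, -1.09 for RPS26A and RPS10A and -1.06 for RPS18A. It was lower in STH1-AID RAP1-AID than in STH1-AID cells for 6 members, RPS27A (-2.03), RPS25B (-1.94), RPS26B (-1.93), RPS14B (-1.60), RPS29A (-1.58) and RPS9B (-1.47), none of which was called with the replicate number as a block (edgeR adjusted p of 0.0789 to 0.409). RPS25B, RPS26B, RPS9B, RPS27A and RPS29A were in both sets, which share the STH1-AID libraries.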

How the results depend on the processing

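The counts below are of members alone. The results give the share of all genes called with TMM scaling and, in part, with the replicate block. For other alternatives, DESeq2 and leaving out 1 library among them, that share is not given. Those counts show how calls moved and do not set the members apart from all genes. In STH1-AID cells the count of members called lower was 0 with TMM, with S. cerevisiae size factors and with the replicate block and TMM. It was 52 by the adjusted p alone, which has no threshold on fold, and 2 to 42 when leaving out 1 library. The median was -0.13, -0.15 and -0.20 under the 3 scalings. In RAP1-AID cells the median was -1.76, -1.81 and -1.83 under the same scalings, and leaving out 1 library gave 48 to 52 calls. In STH1-AID RAP1-AID cells the median was -1.16 with TMM and -1.13 with S. cerevisiae size factors, which called 34, and leaving out 1 library gave 46 to 53. Against WT, 1 member was called lower in DMSO-treated RAP1-AID cells under each of the 3 scalings. In DMSO-treated STH1-AID RAP1-AID cells 0 were called with the replicate block, 2 by the adjusted p alone and 1 to 10 when leaving out 1 library. For RAP1-AID minus STH1-AID effects 46, 47 and 46 were called lower under the 3 scalings and 19 to 40 when leaving out 1 library. For double-tagged minus RAP1-AID effects 1, 2 and 2 were called higher under the 3 scalings and 0 to 1 lower when leaving out 1 library. For STH1-AID RAP1-AID minus STH1-AID effects 32, 28 and 31 were called lower and 1, 1 and 1 higher under the 3 scalings, 0 lower with the replicate block, and 3 to 18 lower and 0 to 1 higher when leaving out 1 library. Single members in STH1-AID cells changed sign under TMM, S. cerevisiae size factors and the block with TMM, where 3 values are given, or under the first ones: RPS9A (0.73, 0.70, 0.66, and -0.35 to 0.14 when leaving out 1 library), RPS14B (0.30, 0.27, 0.23), RPS15 (0.14, 0.12, 0.08), RPS20 (0.10, 0.08, 0.03), RPS21B (0.10, 0.08, 0.03), RPS26A (0.10, 0.07, 0.03), RPS10A (0.05, 0.03), RPS27B (0.03, 0.00) and RPS18A (0.02). RPS28B in STH1-AID RAP1-AID cells was -0.02 without DMSO replicate 2, -0.18 without DMSO replicate 3 and -0.07 without IAA replicate 2, within a range of -0.18 to 0.48. The cause was not tested. The next counts cover the 29 members of the naming rule in the comparisons of IAA with DMSO. Of 1044 such values under alternatives, 863 kept direction and side of the threshold, 141 were no longer called, 13 became called and 27 changed sign. Comparisons with WT are not among them, and there signs also changed with TMM scaling, as given in the results. All 96 values of copy ratios moved by less than 1 SD. The replicate number was not taken to pair the RAP1-AID libraries, where the block left 52 calls, or those of DMSO-treated cells and WT. Beyond the calls given here and in the results, the block changed the count for RAP1-AID minus STH1-AID effects from 30 to 32. What depth limits was not tested apart from the spread between replicates.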
